A study of Mus musculus with 8 samples.

Results

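Of 35486 H3K4me3 peaks listed for lung tumor cells, 1783 were lower after deletion of Gpx4 by a fixed rule on the normalised signal, and they are described here. A peak met the rule where the lower of the 2 KL values was more than 1.4 times the higher of the 2 KLG4m/m values and the mean of the KL values was at least 5 CPM (counts per 1000000, the reads at the peak scaled to the reads in all listed peaks). The 1783 peaks were 5.02% of all listed peaks and 6.01% of the 29678 peaks with a KL mean of at least 5 CPM, which are the peaks that could meet the rule. The mirror rule, with the groups exchanged, was met by 984 peaks, which were 2.77% of all listed peaks and 3.4% of the 28968 peaks with a KLG4m/m mean of at least 5 CPM. The members were chosen on the H3K4me3 values themselves, so their fold changes are descriptions. Positions, annotation, gene function and promoter sequence were not used by the rule.

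KL mice carried Lkb1fl/fl and an oncogene allele that Cre switches on, and KLG4m/m mice carried the same alleles together with Gpx4m/m. Both groups received Cre adenovirus (Ad-Cre) into the airways and tamoxifen, and the lungs were taken 10 weeks after Ad-Cre. In both groups Cre activates the oncogene and removes Lkb1 (gene symbol Stk11). In KLG4m/m cells Cre also switches on a tamoxifen-dependent Dre recombinase inserted at the Gpx4 locus, which removes exons of Gpx4 flanked by rox sites, so deletion is limited to cells that Cre reached. Tumor cells were sorted as CD45-CD31-EpCAM+, and H3K4me3 was profiled by CUT&Tag in KL replicates 1 and 2 and KLG4m/m replicates 3 and 4. The study gives a number of mice per group that matches these libraries in a legend and a different total in its CUT&Tag methods, and the labels do not tie a library to a mouse. P-values therefore measure the spread between the libraries, which may be technical. Each library held 3244495 to 3463731 reads in the listed peaks, so 1 CPM was 3.24 to 3.46 reads. No library stood apart at the members: the median over the 1783 peaks was 10.1 and 10.4 CPM in KL and 5.21 and 5.24 CPM in KLG4m/m.

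H3K4me3 is trimethylation of lysine 4 of histone H3. It is placed by the COMPASS family of methyltransferases, is strongest around the start sites of active and poised genes, and is bound by PHD finger proteins of the transcription machinery; unmethylated CpG islands, which cover most housekeeping promoters, recruit the enzymes through CXXC domain proteins. In CUT&Tag an antibody to the mark tethers an enzyme that cuts the neighbouring DNA, so the reads at a peak count marked chromatin. A read count over a sorted population cannot tell fewer cells that carry the mark from less mark per cell.

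The promoter sequences of 8 genes with a member are shown here because the base composition of promoters is one of the features in which the members differed from the other peaks. They are windows from 250 bases before to 50 bases after the gene's start in RefSeq (GRCm38.p6), 5' to 3' on the gene's strand, with each CpG in capitals. Pygo1, Rev1, Adgrb2, Syde2, Epm2a and Tarbp1 were among the 12 members with the largest ratio, and Epcam and Sftpa1 are genes of epithelial and alveolar cells. The windows lay at chr9:72925395-72925694 (plus strand) for Pygo1, chr1:38129617-38129916 (minus strand) for Rev1, chr4:129984620-129984919 (plus strand) for Adgrb2, chr3:145987620-145987919 (plus strand) for Syde2, chr10:11343195-11343494 (plus strand) for Epm2a, chr8:126475016-126475315 (minus strand) for Tarbp1, chr17:87635729-87636028 (plus strand) for Epcam and chr14:41131538-41131837 (plus strand) for Sftpa1. The peaks of Pygo1, Adgrb2 and Syde2 covered an annotated start site, those of Epm2a, Rev1 and Tarbp1 began 11, 16 and 84 bp downstream of one, and those of Sftpa1 and Epcam began 103 and 423 bp downstream.
Pygo1: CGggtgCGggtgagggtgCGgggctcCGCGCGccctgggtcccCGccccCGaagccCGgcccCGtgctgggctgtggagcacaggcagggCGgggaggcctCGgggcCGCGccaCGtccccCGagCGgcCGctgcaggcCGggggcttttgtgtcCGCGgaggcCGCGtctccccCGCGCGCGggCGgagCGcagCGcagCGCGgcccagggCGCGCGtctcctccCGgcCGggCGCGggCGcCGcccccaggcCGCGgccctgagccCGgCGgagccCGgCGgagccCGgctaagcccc
Rev1: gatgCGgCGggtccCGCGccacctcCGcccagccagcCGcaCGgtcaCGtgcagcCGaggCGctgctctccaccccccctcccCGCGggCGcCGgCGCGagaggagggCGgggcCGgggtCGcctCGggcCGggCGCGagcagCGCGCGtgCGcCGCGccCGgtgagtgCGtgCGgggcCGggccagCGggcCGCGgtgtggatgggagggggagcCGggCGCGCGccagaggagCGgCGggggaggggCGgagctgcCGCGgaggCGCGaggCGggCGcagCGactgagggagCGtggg
Adgrb2: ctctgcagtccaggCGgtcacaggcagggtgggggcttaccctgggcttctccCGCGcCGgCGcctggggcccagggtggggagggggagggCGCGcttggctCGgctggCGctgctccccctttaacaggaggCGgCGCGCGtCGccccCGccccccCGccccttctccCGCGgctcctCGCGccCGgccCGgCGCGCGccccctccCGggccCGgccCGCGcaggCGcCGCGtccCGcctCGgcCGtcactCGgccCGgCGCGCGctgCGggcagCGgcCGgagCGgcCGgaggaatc
Syde2: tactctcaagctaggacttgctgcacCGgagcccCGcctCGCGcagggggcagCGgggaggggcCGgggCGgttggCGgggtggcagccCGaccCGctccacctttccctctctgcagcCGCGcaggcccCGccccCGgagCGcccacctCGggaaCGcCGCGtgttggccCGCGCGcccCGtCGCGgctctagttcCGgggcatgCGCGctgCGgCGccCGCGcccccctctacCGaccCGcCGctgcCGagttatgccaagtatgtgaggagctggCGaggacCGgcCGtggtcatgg
Epm2a: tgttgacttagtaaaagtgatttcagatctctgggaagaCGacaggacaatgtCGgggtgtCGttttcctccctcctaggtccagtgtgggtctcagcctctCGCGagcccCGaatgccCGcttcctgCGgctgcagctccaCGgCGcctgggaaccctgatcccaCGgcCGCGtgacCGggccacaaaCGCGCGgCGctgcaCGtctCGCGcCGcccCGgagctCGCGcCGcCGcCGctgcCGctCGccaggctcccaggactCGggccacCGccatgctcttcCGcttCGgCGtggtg
Tarbp1: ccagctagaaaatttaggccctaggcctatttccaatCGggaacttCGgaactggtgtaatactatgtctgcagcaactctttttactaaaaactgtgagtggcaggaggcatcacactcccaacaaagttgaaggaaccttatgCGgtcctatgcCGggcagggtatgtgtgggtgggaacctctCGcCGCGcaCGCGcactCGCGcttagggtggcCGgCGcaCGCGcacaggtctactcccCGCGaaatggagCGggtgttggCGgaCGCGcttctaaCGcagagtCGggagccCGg
Epcam: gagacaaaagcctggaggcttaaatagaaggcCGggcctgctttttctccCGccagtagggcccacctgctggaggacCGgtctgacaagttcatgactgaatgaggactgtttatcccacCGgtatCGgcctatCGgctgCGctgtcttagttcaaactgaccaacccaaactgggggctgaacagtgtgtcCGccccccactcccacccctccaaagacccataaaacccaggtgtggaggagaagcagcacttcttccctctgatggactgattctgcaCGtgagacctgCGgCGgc
Sftpa1: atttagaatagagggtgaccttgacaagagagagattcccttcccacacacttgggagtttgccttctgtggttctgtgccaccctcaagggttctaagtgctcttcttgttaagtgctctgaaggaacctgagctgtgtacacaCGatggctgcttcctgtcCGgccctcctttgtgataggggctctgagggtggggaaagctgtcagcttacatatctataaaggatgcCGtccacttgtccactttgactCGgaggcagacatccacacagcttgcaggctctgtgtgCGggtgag
The windows of Pygo1, Rev1 and Adgrb2 were 84.0%, 83.0% and 81.7% G or C with 48, 51 and 45 CpGs. Those of Syde2 and Epm2a held 75% and 67.3%, with 39 and 35 CpGs, and that of Tarbp1 held 57.3% with 24 CpGs. The windows of Epcam and Sftpa1 held 57.0% and 52.0%, with 11 and 5 CpGs. Among the windows shown for genes of the 12 largest ratios, the CpG count ran from 24 at Tarbp1 to 51 at Rev1. That range does not cover all 12. Arhgap32, with the largest ratio and no sequence shown, had a mean of 14.3 CpGs and 58.7% GC over its 3 windows. Purb, also not shown, had 39 CpGs and 69.3% GC. No window was found for Insm1, Eif4e3, Rbfox2 and Mrto4-ps2. Epcam and Sftpa1, with 11 and 5 CpGs, were not among the 12.

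The typical loss was modest. The KL mean of the members ran from 5.05 to 104 CPM with a median of 10.3, and the KLG4m/m mean from 0.906 to 68.0 CPM with a median of 5.22. The ratio of the lower KL to the higher KLG4m/m value had a median of 1.61 and reached 6.18. It lay between 1.4 and 1.5 at 566 peaks, between 1.5 and 2 at 924, between 2 and 3 at 246 and at 3 or above at 47. The median absolute difference between the KL replicates over the members was 0.16 on the log2 CPM scale. Between the KLG4m/m replicates it was 0.19 on the log2(CPM + 1) scale, on which the median difference of KLG4m/m from KL was -0.83. The rule requires the groups to be separated, so nothing is read from the size of that difference beside the replicate spread. No member was reduced to 3 reads or fewer in both KLG4m/m libraries, so the mark was reduced at these peaks and not shown to be absent from any of them. A library at 0 reads was seen at 1 member.

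By edgeR's quasi-likelihood test with adjustment by Benjamini-Hochberg over every listed peak, 1123 of the 1783 members were called lower at an adjusted p under 0.05, against 5.52% of all listed peaks (3.1% were called higher, none of them a member). The rule used this contrast, so nothing is read from the count. It fell to 240 with DESeq2, and to 655 without KL replicate 2. With either KLG4m/m library left out edgeR called 0 members lower, with 1283 and 1302 of them lower at an unadjusted p under 0.05.

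The peaks just inside the threshold were at the promoters of Asf1a, a histone chaperone, Mfsd12 and Fbxo10. Asf1a had 44.2 and 42.7 CPM in KL and 25.2 and 30.5 CPM in KLG4m/m. Those just outside were at Tmem245, Polr3c and Gorasp2. Tmem245 had 52.3 and 53.1 CPM in KL and 37.3 and 34.8 CPM in KLG4m/m. Members near the threshold therefore resembled peaks that the rule left out.

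Among members with a KL mean of at least 10 CPM, 1 peak per gene, 11 of the 12 with the largest ratio lay within 1 kb of a start site. The rule and this ranking fix the separation of the groups at these peaks, and their values are given as a description. The promoter peak of Arhgap32, which encodes a GTPase-activating protein, had 9.53 and 11 CPM in KL and 0.579 and 1.54 CPM in KLG4m/m, or 33 and 38 against 2 and 5 reads. Syde2, another GTPase-activating protein gene, had 24.0 and 31.5 CPM in KL and 5.50 and 4.32 CPM in KLG4m/m. Adgrb2, an adhesion G protein-coupled receptor gene, had 9.82 and 11 CPM in KL against 2.32 and 1.54 CPM in KLG4m/m. The fitted fold was 9.45 at Arhgap32, 5.56 at Syde2 and 5.24 at Adgrb2. The methods of the study name an Ensembl release of the mouse genome that is built on GRCm38, but the positions in the deposited table do not follow GRCm38, so their build is uncertain. In the positions of that table, the peaks lay at chr9:31943538-31943938 for Arhgap32, chr3:145693522-145693922 for Syde2 and chr4:129878612-129879012 for Adgrb2.

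Tarbp1, an RNA methyltransferase gene, had the highest KL mean of the 12, with 44.5 and 54.3 CPM in KL and 10.1 and 7.71 CPM in KLG4m/m. Eif4e3, a member of the cap-binding eIF4E family, had 8.38 and 13.0 CPM in KL and 1.45 and 1.85 CPM in KLG4m/m. Rbfox2, a regulator of alternative splicing, had 26 and 25.4 CPM in KL and 5.50 and 6.47 CPM in KLG4m/m. Purb encodes a protein that binds purine-rich single strands. Its peak had 25.7 and 21.4 CPM in KL and 5.50 and 4.93 CPM in KLG4m/m. The peaks lay at chr8:127201320-127201720 for Tarbp1, chr6:99669471-99669871 for Eif4e3, chr15:77190484-77190884 for Rbfox2 and chr11:6425317-6425717 for Purb in the table.

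Insm1, a zinc finger factor of neuroendocrine differentiation, had 11 and 12.4 CPM in KL and 2.03 and 2.16 CPM in KLG4m/m. Epm2a, which encodes the glycogen phosphatase laforin, had 32.9 and 49.1 CPM in KL and 7.24 and 8.01 CPM in KLG4m/m. Rev1, a translesion DNA polymerase gene, had 17.9 and 23.4 CPM in KL and 4.63 and 3.39 CPM in KLG4m/m. Pygo1 encodes a Wnt coactivator whose PHD finger binds methylated H3K4, and its KL replicates were the farthest apart of the 12 in proportion, 11 and 20.5 CPM, against 2.32 and 3.08 CPM in KLG4m/m. The peak next to Mrto4-ps2, 1.58 kb upstream of its start, had 12.1 and 12.7 CPM in KL and 2.90 and 3.08 CPM in KLG4m/m; as a pseudogene it shares sequence with its parent, which makes its read count uncertain. These 5 peaks lay at chr2:146064329-146064729 for Insm1, chr10:11219200-11219600 for Epm2a, chr1:38168331-38168731 for Rev1, chr9:72832538-72832938 for Pygo1 and chr12:21828436-21828836 for Mrto4-ps2.

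**Figure D1:**
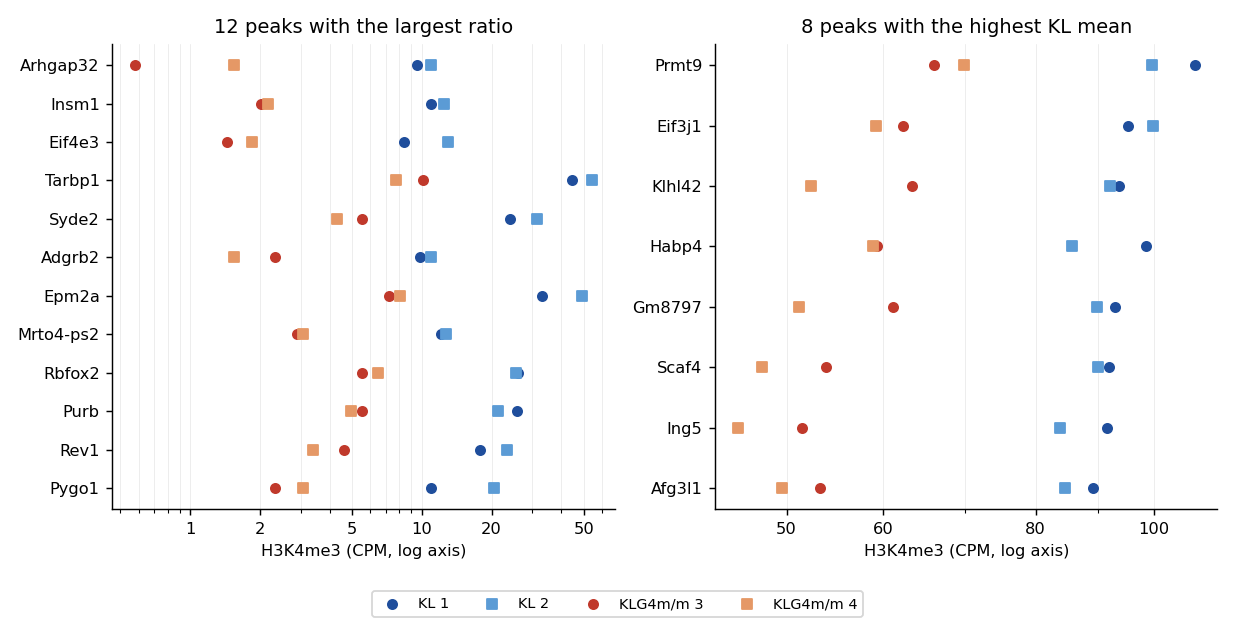
H3K4me3 in CPM (log axis) at the 12 lower peaks with the largest ratio (left) and the 8 with the highest KL mean (right), 1 point per library. All KLG4m/m points lie below all KL points, as the rule requires; the gap is widest at Arhgap32 (0.579 and 1.54 against 9.53 and 11 CPM) and much narrower at the strongest peaks, such as Prmt9 (66.0 and 69.96 against 108 and 99.6 CPM).

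The members with the most signal lost a smaller part of it. Prmt9, a protein arginine methyltransferase gene, had the highest KL mean, with 108 and 99.6 CPM against 66.0 and 69.96 CPM in KLG4m/m, a fitted fold of 1.52. Eif3j1, a subunit of the translation initiation complex eIF3, had 95.3 and 99.9 CPM against 62.2 and 59.2 CPM. Klhl42, an adaptor of a cullin ubiquitin ligase, had 93.6 and 92.1 CPM against 63.4 and 52.4 CPM. These peaks all covered a start site, as did those of Habp4, Scaf4, Ing5 and Afg3l1. Ing5 encodes a PHD finger reader of H3K4me3, and its peak fell from 91.6 and 83.7 to 51.5 and 45.6 CPM. The remaining peak of the 8 was intergenic, 109.5 kb from the nearest start, that of Gm8797, with 93.0 and 89.8 CPM in KL against 61.1 and 51.2 CPM in KLG4m/m.

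Several of the strongest losses were at 1 promoter of a gene with more than 1 promoter. The lost Eif4e3 peak covered an upstream start, while the gene's main promoter peak held 70.5 and 64.4 CPM in KL and 68.9 and 68.4 CPM in KLG4m/m. Adgrb2 kept a second promoter peak, 32.3 and 29.4 CPM against 34.7 and 29.9 CPM. Arhgap32 kept the promoter peak farthest from the lost one, 15.9 and 18.8 CPM against 17.4 and 21.6 CPM, and a weak peak between them was higher in KLG4m/m, 4.92 and 5.55 against 2.02 and 2.31 CPM. At these 3 genes the rule selected 1 promoter peak and not the others. At Rbfox2 the other promoter peak held 21.7 and 26.8 CPM in KL and 15.1 and 22.5 CPM in KLG4m/m, and those groups overlapped. Syde2 had a second member 23.4 kb upstream, with 24.6 and 23.4 CPM against 15.6 and 15.7 CPM.

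Of the 847 members within 1 kb of a start site, 685 were at genes with no other listed promoter peak and 162 at genes with another. In 138 genes a lost promoter peak stood beside one that the rule did not select and that had a KL mean of at least 5 CPM, and in 88 of them the latter was the stronger in KL. Most promoter peaks were no members, so a second peak outside the rule is the usual case.

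The 1783 members were assigned to 1671 genes, of 20871 with a listed peak. In 92 genes 2 peaks met the rule, in 7 genes 3 did and in 2 genes 4 did. Adgrl2, which encodes a latrophilin adhesion receptor, had 4 members spread over intergenic and intronic sites, the strongest in its first intron with 26.6 and 34.4 CPM against 18.5 and 18.2 CPM. Fam53b also had 4, the most reduced at a promoter, with 10.4 CPM in both KL libraries against 4.34 and 3.7 CPM. Maml3, a coactivator of Notch signalling, had 3 members in its first intron, of which the one with the largest ratio fell from 6.35 and 8.37 to 0.869 and 2.47 CPM. The Forkhead factor gene Foxp1 had 3, none at a promoter, and the adaptor gene Shb had 3 in its introns, from 8.09 to 18.5 CPM in KL and from 3.76 to 9.86 CPM in KLG4m/m. Frmd4a had 3, all within 1 kb of a start site, and Epb41l2 and Atp13a4 had 3 each at promoters and elsewhere. These peaks were mostly weak, and the KL mean was below 20 CPM at 23 of these 26.

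By annotation the members were spread over every class. There were 847 within 1 kb of a start site, which was 47.5% of the members, against 54.3% of the peaks that could meet the rule and 25.3% of the peaks higher in KLG4m/m. Introns held 412 members, 156 of them in first introns, distal intergenic sequence held 260 and exons held 97. As a share of each class, 5.26% of promoter peaks within 1 kb were members, 6.68% of first-intron, 7.66% of later-intron, 6.84% of intergenic and 9.06% of exonic peaks. These lie near the 6.01% over all peaks with a KL mean of at least 5 CPM. The promoter share of the members depended on the rule, and it was 72.1% with a floor of 10 CPM and 42.8% with none. These shares cannot be set against the 54.3%, because the floor also changes the peaks that could meet the rule. Of those peaks outside the class within 1 kb, 52.8% had a KL mean below 10 CPM.

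**Figure D2:**
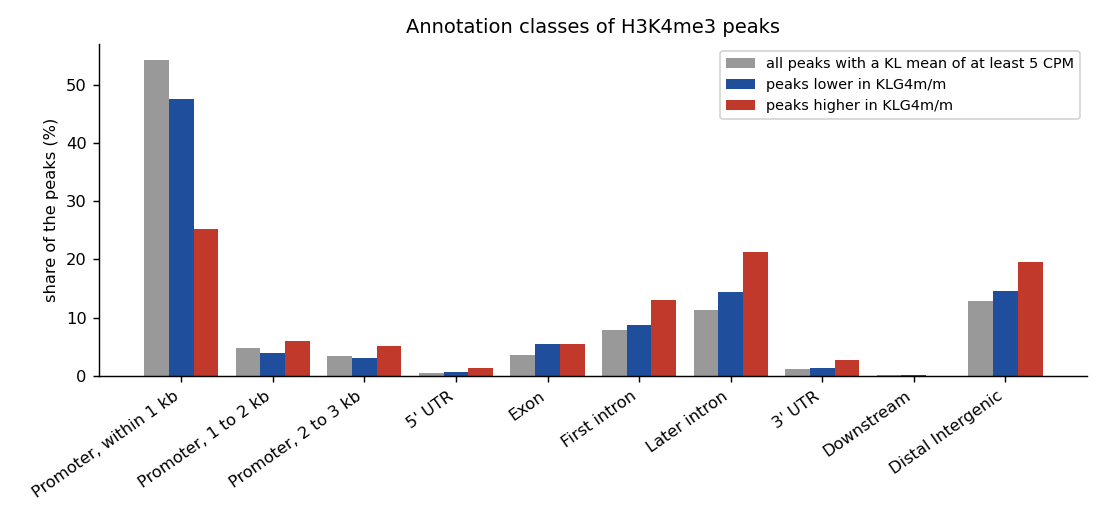
Share of peaks in each annotation class (% of the set) among all peaks with a KL mean of at least 5 CPM (grey), peaks lower in KLG4m/m (blue) and peaks higher in KLG4m/m (red). Of the lower peaks 47.5% and of the higher peaks 25.3% lie within 1 kb of a start site, against 54.3% of the grey set. The grey set is the pool of the lower peaks only. The median KL mean of the higher peaks was 4.84 CPM, so many of them lie outside it.

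The classes hid a contrast that appeared once peaks of equal signal were compared. Within 1 kb of a start site, 10.0% of the 2258 peaks with a mean of 10 to 20 CPM over the 4 libraries were lower in KLG4m/m and 2.35% were higher. Between 20 and 40 CPM the shares were 7.36% and 1.15% of 3123 peaks, and between 40 and 80 CPM 1.92% and 0.183% of 6005. From 80 to 160 CPM, 1 of 2704 promoter peaks was a member. Peaks elsewhere went the other way above 10 CPM, with 2.89% lower and 4.59% higher of 3773 peaks between 10 and 20 CPM. At promoters the losses therefore outnumbered the gains in each band from 0 to 80 CPM, and at other sites they outnumbered them below 10 CPM.

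**Figure D3:**
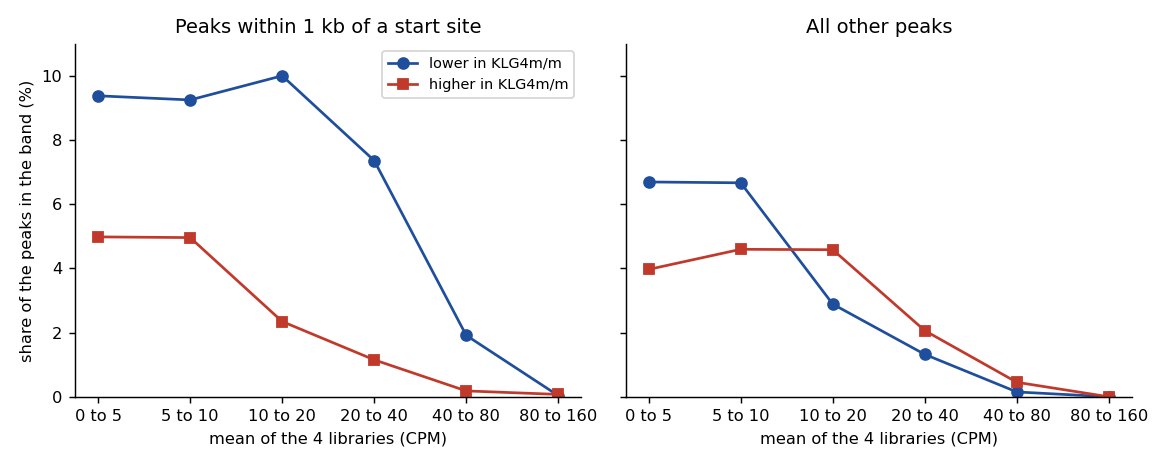
Share of peaks lower (blue) and higher (red) in KLG4m/m by the mean of the 4 libraries (CPM), for peaks within 1 kb of a start site (left) and all other peaks (right). At promoters the blue line stays above the red up to 80 CPM (10.0% against 2.35% between 10 and 20 CPM), whereas at other peaks the lines cross at 10 CPM (2.89% against 4.59%).

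Of the 847 promoter members, 500 (59.0%) covered an annotated start site, close to the 61.8% over all promoter peaks with a KL mean of at least 5 CPM. The share of peaks that were members was 7.85% for those beginning up to 100 bp downstream of the start, 6.69% from 100 to 400 bp and 3.89% from 400 to 1000 bp, against 5.02% for peaks covering the start and 3.03% for those 500 to 1000 bp upstream. Of the 936 members elsewhere, 549 (58.7%) were downstream of the nearest start, close to the 59.9% over all such peaks with a KL mean of at least 5 CPM. They lay at a median distance of 11279 bp, against 9092 bp over all such peaks. A KL mean below 10 CPM was found at 681 of the 936 (72.8%) and at 52.8% of the 13565 such peaks. Beyond 100 kb 19 of 115 peaks were members (16.5%). The intergenic members farthest from a start were those assigned to Tns3, at 159 kb, Gm29680, at 143 kb, and Gm8797.

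Members occurred on every chromosome. The share of peaks that were members ran from 4.30% on chromosome 11 to 8.04% on chromosome 6 among the autosomes, and on the X chromosome it was 2.90% (19 of 656). Members also lay next to each other. Where a peak followed a member within 5 kb, 27 of 164 (16.5%) were members, against 134 of 3912 (3.43%) where it followed another peak. Peaks this close share a locus and often a gene, and they are not independent.

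Promoters rich in G and C made up a larger share of the members than of the other promoter peaks, with no test run over peaks. RefSeq windows were found for 571 of the 702 promoter members of protein-coding genes (81.3%) and for 82.8% of all 13254 such promoter peaks with a KL mean of at least 5 CPM; for genes with several windows the mean was used. The median GC content was 64.7% for the members, 60.3% for the other promoter peaks and 55.2% for 138 promoter peaks higher in KLG4m/m, with median CpG counts of 24, 19 and 8. At least 75% GC, as at Pygo1, Rev1, Adgrb2 and Syde2, was reached by 98 of the 571 (17.2%) and by 5.47% of the others. Seen from the promoters with a KL mean of at least 5 CPM, 3.58% to 4.36% were members in each band below 70% GC. The share was 9.48% from 70 to 75% and 14.7% (98 of 667) at 75% or more. Of these 667, 0.150% were higher in KLG4m/m. This floor keeps every member but only 84 of the 138 higher promoter peaks. Of the 138, 2 reached 75% GC.

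The rise with GC content was present at equal signal. Among promoters with a KL mean of 5 to 20 CPM, 8.99% of those under 60% GC and 25.2% of those at 75% or more were members, and between 40 and 80 CPM the shares were 1.99% and 8.90%. The whole class of these promoters was shifted: at 75% GC or more the median log2 difference of KLG4m/m from KL over all 667 promoters was -0.18. At these promoters KL replicate 1 differed from replicate 2 by a median of -0.06 and KLG4m/m replicate 3 from replicate 4 by 0.05, so libraries of the same group also differed with GC content, by less than the groups did. Each library was then scaled within 20 bands of GC content, an alternative chosen after seeing the data. Of the 571 members 472 (82.7%) still met the rule among 486 in all, and the share at 75% GC or more fell from 14.7% to 8.10%, against 4.19% at lower GC. The difference of the median GC content between members and other promoter peaks fell from 4.33 to 1.67 percentage points. All 8 of the genes named by ratio that had windows were still selected.

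**Figure D4:**
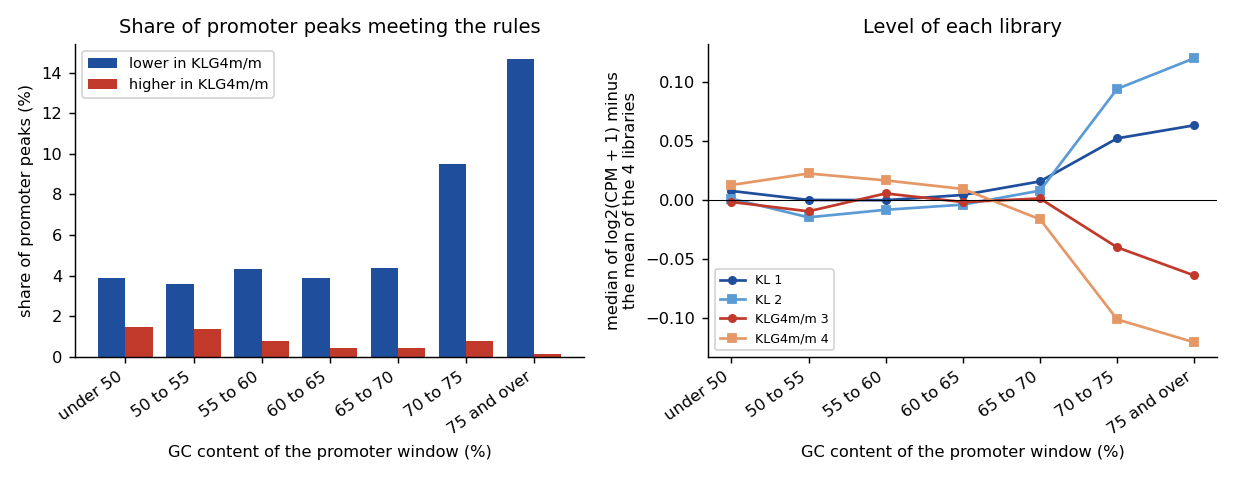
Promoter peaks of protein-coding genes by the GC content of their RefSeq window. Left: share lower (blue) and higher (red) in KLG4m/m among promoter peaks with a KL mean of at least 5 CPM, which leaves out part of the higher peaks. The lower share is 14.7% at 75% GC and over. Right: median of log2(CPM + 1) of each library minus the mean of the 4 libraries; the KL and KLG4m/m libraries separate above 70% GC, and the replicates of each group also differ there.

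Short motifs were then counted in genes with 1 window, on both strands, in 413 members and 7812 other promoters. The GC box GGGCGG was found in 68.8% and 65.3%, against 35.7% of all 32851 RefSeq promoter windows. The ETS motif CCGGAAG was found in 8.72% of the members and 17% of the others (8.86% of all windows) and the CCAAT box CCAAT in 29.8% and 39.1% (37.4% of all windows). Shares were closer for the TATA box TATAAA (6.54% and 7.51%, 13.6% of all windows) and the E box CACGTG (9.93% and 9.69%, 7.15% of all windows). A match is a description of these letters in these windows. The members and the other promoters were not matched for signal or GC content, so the shares cannot be told apart from differences in either. Their median GC content was 66.0% and 60.7%. Within 1 kb of a start site, the median KL mean was 21.2 CPM over the members and 45.8 CPM over all peaks that could meet the rule.

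Gene families differed in how often they were hit. Each is given by its members over its peaks with a KL mean of at least 5 CPM, beside the 6.01% over all such peaks. Ion channel genes had 22 of 166 (13.3%), in 21 genes, with 14 of 110 (12.7%) at promoters. The median KL mean of the channel peaks was 15.5 CPM. Between 10 and 20 CPM over the 4 libraries, 10.0% of all promoter peaks and 2.89% of the other peaks were members. Kcnq1, a voltage-gated potassium channel gene, had 36.1 CPM in both KL libraries against 20.6 and 20.3 CPM at its promoter. Hcn3, a cation channel gene of the hyperpolarization-activated family, had 36.1 and 33.8 CPM against 21.7 and 17.3 CPM. An exonic peak of the NMDA receptor subunit gene Grin2d fell further, from 29.5 and 33.2 to 11.3 and 9.55 CPM. The median log2 fold change over all 166 channel peaks was -0.07, and 8 channel peaks met the mirror rule.

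In the Wnt pathway 8 of 93 peaks (8.60%) were members, 6 of them at promoters, and 3 met the mirror rule. Among the ligands, Wnt7a had 18.8 and 18.5 CPM in KL and 6.08 and 7.09 CPM in KLG4m/m, and Wnt5b had 12.1 and 20.8 CPM against 4.92 and 5.86 CPM. Wnt2b, also a ligand, was reduced less, from 30.3 and 33.5 to 19.98 and 21.0 CPM. The receptor gene Fzd6 had 24.6 and 32.9 CPM against 15.9 and 14.2 CPM, and the coactivator gene Pygo1 is given above. The median log2 fold change over all 93 peaks was -0.05.

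Ubiquitin ligase and protease genes had 34 members of 466 peaks (7.30%), 24 of them at promoters, including Klhl42, Fbxo4, Usp10 and Rnf111, against 7 peaks that met the mirror rule. MAP kinase cascade genes had 10 of 137 (7.30%). At the promoter of Dusp5, which encodes a nuclear phosphatase of the MAP kinase ERK, the signal was 37.3 and 42.7 CPM in KL and 17.7 and 11.4 CPM in KLG4m/m. At that of Mapk14, the p38 alpha gene, it was 65.3 and 64.1 CPM against 39.4 and 40.4 CPM. Homeobox and T-box genes had 8 of 123 (6.50%), such as Lhx2, with 26.6 and 17.6 CPM against 10.4 and 6.47 CPM. Zinc finger genes had 24 of 536 (4.48%), of which Zbtb38, a methyl-CpG-binding factor gene, fell from 47.4 and 46.5 to 17.9 and 19.1 CPM. These shares lie near the share over all peaks.

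Families of transport, structure and translation held shares of 3.94% to 5.75%. They were membrane trafficking genes with 19 of 441, solute carrier genes with 21 of 419, centrosome, kinesin and dynein genes with 13 of 330, collagen, laminin and integrin genes with 10 of 174 and translation factor genes with 4 of 76. Tbc1d20, a Rab GTPase-activating protein gene, had the highest KL mean of these apart from Eif3j1, with 85.8 and 85.2 CPM in KL and 40.5 and 42.5 CPM in KLG4m/m. Slc26a9, an epithelial chloride transporter gene, had 15.9 and 23.7 CPM against 6.95 and 7.40 CPM. Col4a1, a basement membrane collagen gene, had 37.0 and 33.8 CPM against 19.7 and 23.4 CPM.

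Several families of housekeeping function had few members, though not all. The translation factor genes given above held 5.26% at a median KL mean of 60.5 CPM. Cytosolic ribosomal protein genes held 4.05% (3 of 74), a share like those of the families above. There were 3 among 185 peaks of RNA splicing and helicase genes (1.62%) and 0 of 140 at their promoters. Respiratory chain genes had 1 of 93, the promoter of the complex assembly factor gene Ndufaf6, with 76.3 and 85.5 CPM against 43.4 and 54.2 CPM. Mitochondrial ribosomal protein genes had 1 of 73, proteasome genes 1 of 50 and histone genes 1 of 63. The single histone gene was H2az2, an H2A.Z variant, with 82.6 and 78.8 CPM against 49.2 and 47.5 CPM. The median KL mean of these families was 52.6 to 73.1 CPM, a range of signal in which few promoters of any kind were members.

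Genes that set and remove H3K4 methylation held 2 members of 26 peaks. Wdr5, a core subunit of the methyltransferase complexes, had 74.2 CPM in both KL libraries and 50.4 and 49.3 CPM in KLG4m/m at its promoter. Kdm1a, an H3K4 demethylase gene, had 34.4 and 42.7 CPM against 23.4 and 21.0 CPM. Triacylglycerol synthesis and droplet genes held fewer members than peaks that went the other way. The mirror rule was met by 5 of their listed peaks, and the median log2 fold change was -0.01. Their 2 members, of 51 peaks, were both in first introns. These were at Plpp1, a phosphatidate phosphatase gene, with 12.7 and 12.4 CPM against 4.63 and 6.47 CPM, and at Gpat4, a glycerol-3-phosphate acyltransferase gene, with 7.51 and 6.64 CPM against 2.61 and 2.77 CPM. Ferroptosis genes had 1 of 55, an intergenic peak of Vkorc1l1, and LKB1 and AMPK pathway genes 1 of 42, in the 3' UTR of Prkab1. The mirror rule was met by 3 listed peaks of ferroptosis genes and by 0 of LKB1 and AMPK pathway genes.

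Of the alleles in the model, Gpx4 had 1 listed peak, at its promoter, and it was no member, with 69.9 and 68.1 CPM in KL and 88.0 and 92.8 CPM in KLG4m/m. The deleted exons lie downstream of this peak, so the peak does not check the deletion. Both promoter peaks of Stk11 were likewise no members.

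Markers of alveolar epithelium had larger shares of members than most lists, on few peaks. The lists were chosen with earlier results of these data known. Of 15 peaks of alveolar type 2 markers 5 were members (33.3%), 14 had a log2 fold change below 0 and the median was -0.38, against -0.01 over all peaks with a KL mean of at least 5 CPM. The median KL mean of the 15 was 14.7 CPM. Between 10 and 20 CPM over the 4 libraries, 10.0% of all promoter peaks and 2.89% of the other peaks were members. Sftpa1, which encodes surfactant protein A, had a promoter peak of 15.6 and 18.2 CPM in KL and 5.79 and 7.40 CPM in KLG4m/m, and a second member 1.54 kb downstream of its start. Sftpb, the surfactant protein B gene, had 17.6 and 14.7 CPM against 5.50 and 6.16 CPM at 1.93 kb downstream, while the peak over its start was no member, with 26 and 24.0 CPM against 18.2 and 20.7 CPM. Lamp3, a lamellar body gene, had 7.51 and 6.64 CPM against 1.16 and 1.23 CPM, a ratio of 5.39. The promoter peaks of Abca3, Etv5, Lpcat1 and Napsa were no members, and no listed peak was assigned to Sftpc or Slc34a2. The Napsa peak over the start went the other way, with 19.6 and 17.6 CPM in KL and 21.7 and 19.7 CPM in KLG4m/m.

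Of 19 peaks of alveolar type 1 markers 4 were members, at Aqp5, Pdpn and in 2 places at Clic5, with a median log2 fold change of -0.01 over the 19. At Clic5 1 further peak, with a KL mean below 5 CPM, met the mirror rule, with 4.33 and 3.75 CPM in KL against 8.40 and 8.01 CPM in KLG4m/m. The stronger promoter peak of Clic5 had 48.8 and 42.4 CPM against 58.2 and 50.2 CPM. The water channel gene Aqp5 had 23.1 and 19.9 CPM in KL and 12.2 and 13.6 CPM in KLG4m/m. Hopx, Cav1 and Rtkn2 had none, and no listed peak was assigned to Ager. Tight junction and keratin genes had 6 members of 47 peaks (12.8%), 0 peaks that met the mirror rule and a median of -0.19. The 6 members were at Grhl1, an epithelial transcription factor gene, with 45.1 and 45.9 CPM against 28.1 and 21.0 CPM, at the junction genes Cldn18 and F11r, at Tjp1 in 2 places, and at Epcam. The median KL mean of the 47 peaks was 20.9 CPM. Between 20 and 40 CPM over the 4 libraries, 7.36% of all promoter peaks and 1.32% of the other peaks were members.

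Epcam, whose protein was used to sort the cells, had 41.0 and 43.0 CPM in KL and 22.3 and 23.4 CPM in KLG4m/m at 423 bp downstream of its start. It was the only member among 17 peaks of the 7 markers of sorted epithelial tumor cells, whose summed signal was 341 and 347 CPM in KL and 298 and 301 CPM in KLG4m/m. The promoter peaks of Krt8, Krt18, Krt19, Cldn4, Cldn7 and Cdh1 were no members. That of Cdh1 was still lower, with 44.2 and 43.9 CPM in KL against 31.8 and 35.4 CPM in KLG4m/m. Of the 17 peaks 11 had a log2 fold change below 0. All 7 markers had signal in every library, but so did markers of other cell types, so this does not check the cell type.

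**Figure D5:**
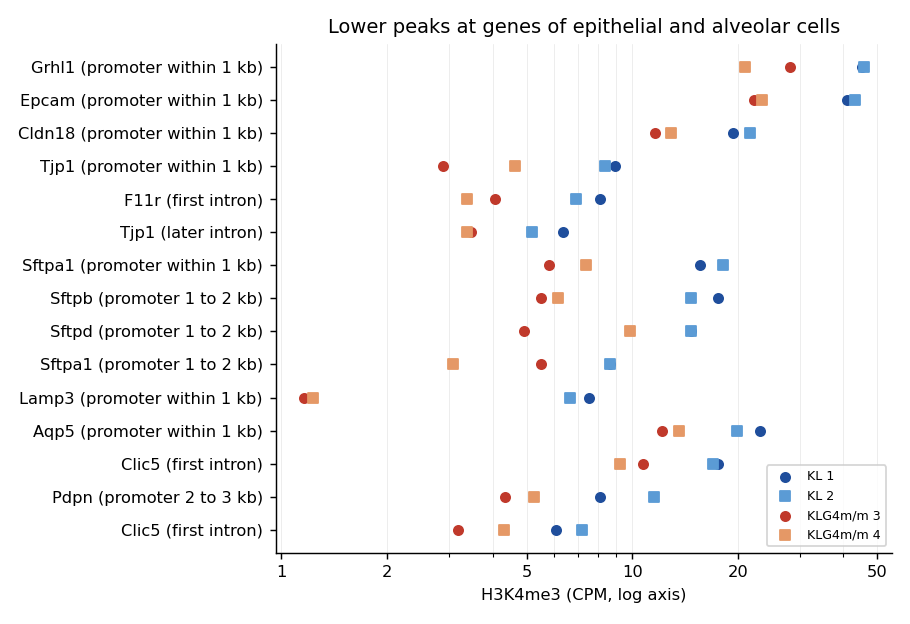
H3K4me3 in CPM (log axis) in each library at the lower peaks of tight junction and keratin genes (top 6 rows), alveolar type 2 markers (next 5) and alveolar type 1 markers (bottom 4). The peak at Epcam lies at 22.3 and 23.4 CPM in KLG4m/m against 41.0 and 43.0 CPM in KL, and the widest gap is at Lamp3.

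Markers of other cells moved beside these. Summed over the listed peaks, the alveolar type 2 markers held 410 and 432 CPM in KL and 329 and 306 CPM in KLG4m/m, and the alveolar type 1 markers 378 and 359 against 352 and 334 CPM. Lymphocyte markers held 159 and 153 CPM in KL and 191 and 195 CPM in KLG4m/m, with 0 of 10 peaks as members, 2 that met the mirror rule and 1 with a log2 fold change below 0. The pan-immune marker Ptprc, which encodes the CD45 that the sort gates out, held 54.6 and 59.8 CPM against 69.8 and 62.9 CPM. Macrophage markers held 212 and 223 CPM against 221 and 229 CPM with 2 of 15 members, endothelial markers 224 and 261 against 218 and 243 CPM with 1 of 18, and fibroblast markers 107 and 109 against 114 and 120 CPM with 0 of 6. Club cell markers had 0 of 7 and ciliated markers 1 of 11. The part of the cell composition of the sorted samples in the lower peaks was not tested.

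By gene type, 1258 members were assigned to protein-coding genes (5.81% of their peaks with a KL mean of at least 5 CPM), 328 to lncRNA genes (6.39%), 94 to pseudogenes (8.11%) and 25 to miRNA genes (7.27%), all near the share over all peaks. The values of every gene here rest on 4 libraries, and members with few reads have a large counting error for their level: the median member had 35 and 36 reads in KL and 18 and 17 reads in KLG4m/m.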

How the data were processed

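H3K4me3 was profiled by CUT&Tag in sorted tumor cells of KL (replicates 1 and 2) and KLG4m/m mice (replicates 3 and 4). The antibody-bound chromatin was cut with a protein A/G-MNase fusion, per the labels. The authors trimmed the reads with Trim Galore 0.6.10, mapped them with BWA 0.7.15 to an Ensembl release of the mouse genome, removed mitochondrial, poorly mapped and duplicate reads (Picard 2.17.3), called peaks with MACS2 2.2.7.1 and named HOMER 4.11.1 for annotation. The deposited table lists 35486 peaks of 400 bp; whether they were called on pooled libraries is not given in the sources used here. It holds whole-number counts of reads and CPM scaled by the authors to reads in the listed peaks, so a shift common to every peak cannot be seen. Removing duplicates can limit the reads at strong peaks. The deposited distance to the nearest start site (in bp, signed) and the annotation class were used as given. The table also holds the authors' comparison (log2 fold changes, p-values and adjusted p-values), which was not used. That release is built on GRCm38, but the positions in the table do not follow it and no genome of their build was used here, so the planned GC content of the peaks was replaced by that of RefSeq promoter windows (GRCm38.p6), matched by gene symbol, synonym or transcript.

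The members were taken from the CPM by the rule given above. The members and the gene lists were chosen with earlier results of these data known. Named peaks followed a written rule: the 12 largest ratios at a KL mean of at least 10 CPM (1 per gene), the 8 highest KL means, the peaks nearest the threshold, genes with 3 or more members, up to 4 members with the highest KL mean per gene list, the farthest intergenic members and the alleles and sorting markers. Every peak of the alveolar, junction and sorting markers was also examined; F11r and Lamp3 were named from these after their values were seen. Counts were fitted with edgeR 4.0.16 (quasi-likelihood, TMM, no covariate, R 4.3.3), checked on simulated data, with DESeq2 1.42.0 and limma 3.58.1 on log2(CPM + 1) as alternatives. The libraries held 3244495 to 3463731 reads in peaks. No test was run over the members, since peaks of the same libraries are not replicates. The 4 H3K27ac libraries were not analysed here. Some results under the rule for named peaks are not reported here.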

Additional observations from a re-analysis of the deposited data

How the results depend on the processing

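The number of peaks called lower by edgeR was 1960 over all listed peaks and 1123 among the members. DESeq2 gave 250 and 240, and leaving out 1 library gave 0 to 1459 and 0 to 797. The calls went to 0 without KLG4m/m replicate 3 or 4, where 3235 and 2950 of all listed peaks were lower at an unadjusted p under 0.05, and to 998 and 655 without KL replicate 2. A lone library of a group is then assumed to vary like those of the other group. limma, library totals and a filter on low signal gave counts within 1.5 times of these. The rule itself selected 4161 peaks with the ratio of the group means, 3744 with a fold of 1.2, 293 with a fold of 2, 913 with a KL mean of at least 10 CPM and 2832 to 3518 with 1 library left out, where fewer values have to be separated. TMM-scaled CPM gave 1707, all of them members. The share within 1 kb of a start site was 44.4%, 51.2%, 50.5% and 72.1% under the first 4 of these rules, 42.8% with no floor and 41.4% to 47.1% with 1 library left out. The median promoter GC content of the members exceeded that of the other promoters by 4.33 percentage points, by 5.33 in genes with 1 window, by 5 at a KL mean of at least 10 CPM and by 1.67 after scaling within bands of GC content. The 12 peaks with the largest ratio, whose direction the rule fixes, passed the threshold in 67 of 91 values under the alternatives; DESeq2 gave no adjusted p at Arhgap32, Insm1, Eif4e3, Adgrb2 and Mrto4-ps2, which are not among these values. No paired analysis was possible because the groups share no replicate number. The GC content of the peaks themselves and its alternatives were not run, for want of a genome of their build. Depth limits the weakest members, with a median of 17 and 18 reads in KLG4m/m.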
